A study of Mus musculus with 6 samples.

Results

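The amino acid transporters of the SLC families described here are a list of 10 genes chosen by name, and 9 of them have a row in the deposited tables, which hold 49377 gene names in all. The other listed gene was not analysed here. The 9 genes are Slc3a2, Slc7a1, Slc7a3, Slc7a6, Slc7a11, Slc1a4, Slc1a5, Slc38a1 and Slc38a2, and each is carried by a single locus of the tables. RNA was sequenced from blastocyst-derived mouse embryonic stem cells of the strain C57BL/6J and the genotype Mll1fl/fl; Cre-ER TM, that is with floxed Mll1 alleles and a Cre recombinase whose activity depends on tamoxifen. All groups share this genotype, the labels name no tamoxifen treatment, and they do not say whether the cells are 1 clone. One group received 1 µM of 1α,25-dihydroxyvitamin D3 (VD3), the active form of vitamin D, together with 100 µM MM-401, which inhibits the histone methyltransferase MLL1, for 5 days. A second group received 1 µM VD3 for 5 days, and the third was untreated. Cells grew with leukemia inhibitory factor on mouse fibroblast feeder cells, in medium with 15% fetal calf serum or 20% serum replacement, and the treatments are described in serum medium. Neither the medium nor the time in culture of the untreated cells is stated. An effect of either on amino acid transporters cannot be told apart from that of the treatments. No group with MM-401 alone is among the samples used here.

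The labels name 2 libraries in each group, but the tables hold 1 pooled column per group. No value below therefore has a spread between libraries, no test was possible, and no p-value is given. The column for VD3 carries its name. The columns for untreated cells and for VD3 plus MM-401 were matched through the part of their names that the group's titles share, and the comparisons below hold only if that match is right. Levels are given in FPKM, fragments scaled to transcript length and, in a way not stated here, to sequencing depth. Between genes they depend on the transcript lengths that the authors' estimate assigned to the fragments. The authors' lower and upper confidence bounds are in brackets or named as an interval. The sources used here do not give the level of these bounds. The total estimated count was 73499639 with VD3 plus MM-401, 73636342 with VD3 and 62284598 in untreated cells. Over 9781 genes with more than 500 counts in every pool, the count behind 1 FPKM had a median ratio of 1 between pools. FPKM and estimated counts thus share 1 scale between pools, and the FPKM are not scaled to these totals. The 9 measured pluripotency markers stood between 26.4 and 2053 FPKM in every pool. Of 18 fibroblast markers, which would report feeder cell RNA, 13 were below 1 FPKM with VD3 plus MM-401, 11 with VD3 and 11 in untreated cells, and Lum and Fap were listed at 0 in every pool. The summed level of all 18 was 137 FPKM with VD3 plus MM-401, 220 with VD3 and 128 in untreated cells. Of these sums, Tagln, an actin-binding protein gene that other cells also express, made up 116, 190 and 105 FPKM in the same order. The fibroblast sum was thus highest in the VD3 pool, as were most of the transporters, and its part in their levels was not tested. In such bulk samples, fewer cells of a type and less RNA per cell cannot be told apart.

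Cells take up amino acids through membrane carriers with overlapping substrates. Uniporters and sodium-coupled carriers of the SLC1, SLC7 and SLC38 families load the cell with neutral or cationic amino acids, and heterodimeric exchangers trade some of these for others. An exchanger of this kind consists of a light chain of the SLC7 family, which carries the substrate, and a heavy chain, commonly the glycoprotein encoded by Slc3a2 (CD98, 4F2hc), which brings it to the plasma membrane. Several of the genes are known targets of ATF4, the transcription factor that is translated when amino acids are short, and the imported leucine, arginine and glutamine feed growth signalling through mTORC1.

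The transporters were expressed over a range of more than 3 orders of magnitude. By FPKM, Slc3a2, Slc1a5 and Slc7a3 were the 3 highest of 53 amino acid transporter genes with a row in each of the pools, and Slc7a11 was below 1 FPKM in every pool. By estimated count, which is not per length, Slc38a2 stood above all 3 in untreated cells (35963 beside 33809, 16590 and 18443). There the count behind 1 FPKM was 45.6, 60.7 and 83.1 for these 3 genes, beside 311 for Slc38a2. Their longest protein-coding transcripts have 2813, 2764 and 2750 bases, beside 4660. The rank by FPKM thus depends on the transcript lengths assigned to their fragments, which were not checked. Together the 9 genes made up 77.2% of the summed FPKM of the 53 genes with VD3 plus MM-401, 79.7% with VD3 and 75.4% in untreated cells. Much of this was the heavy chain gene Slc3a2, at 666 of 1536 FPKM of the 9 genes with VD3 plus MM-401, 1030 of 2163 with VD3 and 741 of 1494 in untreated cells. In untreated cells the order was Slc3a2, Slc1a5, Slc7a3, Slc38a2, Slc38a1, Slc7a6, Slc7a1, Slc1a4 and Slc7a11. The intervals of neighbours in this order were apart at 3 of 8 steps, between Slc38a2 and Slc38a1, between Slc7a1 and Slc1a4, and between Slc1a4 and Slc7a11. In both treated pools the order was the same except that Slc7a1 stood above Slc7a6, and those 2 genes had overlapping intervals in every pool.

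**Figure D1:**
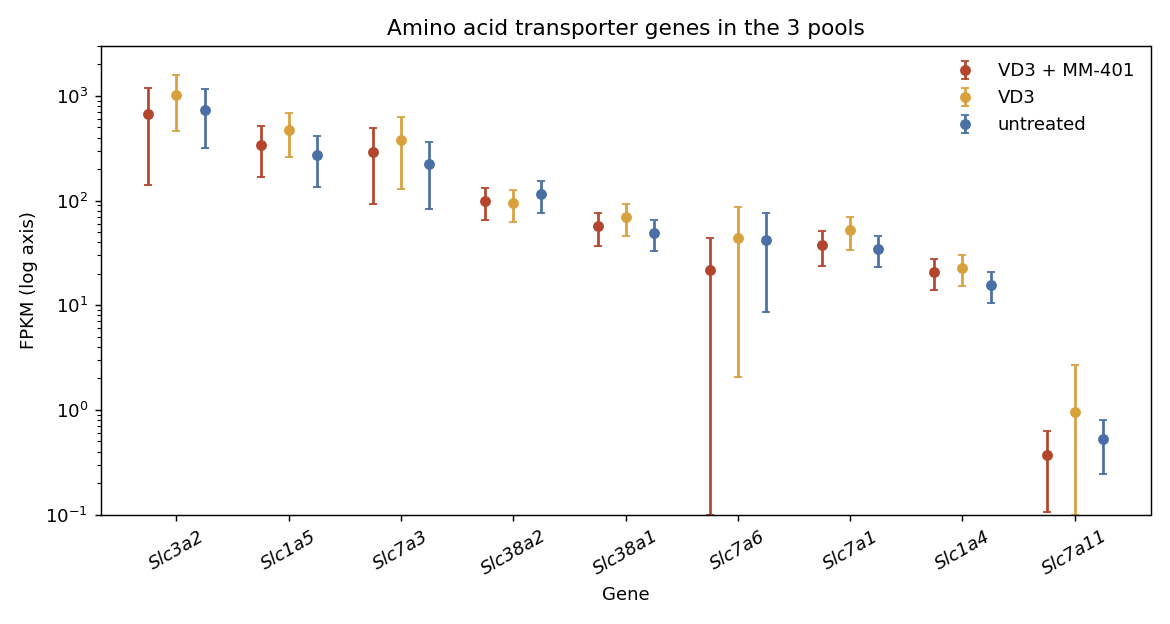
FPKM (log axis) of the 9 transporter genes in the pools of VD3 plus MM-401, VD3 and untreated cells, in the order of the untreated level. Bars span the authors' lower and upper bounds, with bounds below 0.1 cut at the foot of the axis. For every gene the bars of the pools overlap, and the genes run between 1030 FPKM (Slc3a2 with VD3) and 0.368 FPKM (Slc7a11 with VD3 plus MM-401).

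A gene was called different between pools where FPKM + 1 differed at least 2-fold (1 on the log2 scale), the intervals were apart and the higher pool had at least 5 FPKM. Of the 9 transporters 8 passed the level of 5 FPKM, and Slc7a11 did not. By this criterion 0 of the 8 were called with VD3 against untreated, where 561 of 10911 tested genes were called (5.14%), 0.926% higher and 4.22% lower. With VD3 plus MM-401 against untreated 0 of 8 were called, where 6.94% of 10966 genes were called, 4.26% higher (467 genes) and 2.68% lower (294 genes). The balance depended on the scaling, with 299 higher and 303 lower after centring on the median gene, and 203 higher and 633 lower by CPM, the count scaled to the pool's total. For VD3 against untreated, 101 higher and 460 lower genes became 54 and 474 after centring and 21 and 1019 by CPM. With VD3 plus MM-401 against VD3 0 of 8 were called, where 1.37% of 10717 genes were, 0.83% higher and 0.541% lower. The intervals of the pools overlapped for all 9 transporters in all 3 comparisons, while they were apart for 5.33%, 7.05% and 1.4% of the tested genes, in the order given. A count of 0 among 8 lies near each of these shares and is no result about the transporters. The count variance that the authors deposited implied a standard deviation of 0.34 on the log2 scale for the VD3 difference of genes such as Slc7a1 (0.34), Slc7a3 (0.34) and Slc1a5 (0.34). This is 1 standard deviation and no limit of detection. The log2 count ratios of these 3 genes, 0.53, 0.71 and 0.56, were larger than it. Their differences of FPKM + 1 were 0.57, 0.77 and 0.78 on the log2 scale, with overlapping intervals. The standard deviation of the counts does not describe the precision of these FPKM differences.

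Below the threshold, most of the transporters stood higher with VD3 than in untreated cells, and lower with VD3 plus MM-401 than with VD3. With VD3 against untreated, 7 of the 8 genes that passed the filter had a difference above 0. This lies near the 71.7% of all tested genes that also had one, and is no result about the transporters. Their median difference of FPKM + 1 was 0.50 on the log2 scale beside 0.36 for all tested genes. By estimated count 7 of the 8 were above 0, beside 72.3% of all genes. The counts share the scale of the FPKM between pools, so they do not check the direction separately. By CPM the median of the 8 against untreated was 0.27 with VD3, beside 0.13 for all tested genes. With VD3 plus MM-401 it was 0.02 by CPM, beside 0.03. With VD3 plus MM-401 against untreated, 5 of the 8 were above 0, beside 66.1% of all genes, and the median was 0.16 beside 0.27, while by count 6 of the 8 were above 0, beside 67% of all genes. With VD3 plus MM-401 against VD3, 7 of the 8 were below 0, beside 47.9% of all genes, and the median was -0.41 beside 0.02. By count 6 of the 8 were below 0 in this comparison, beside 48.5%, with a median of -0.19. These comparisons share pools, so a deviation of the VD3 pool alone would put the genes on opposite sides of it in the first and the last of them.

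**Figure D2:**
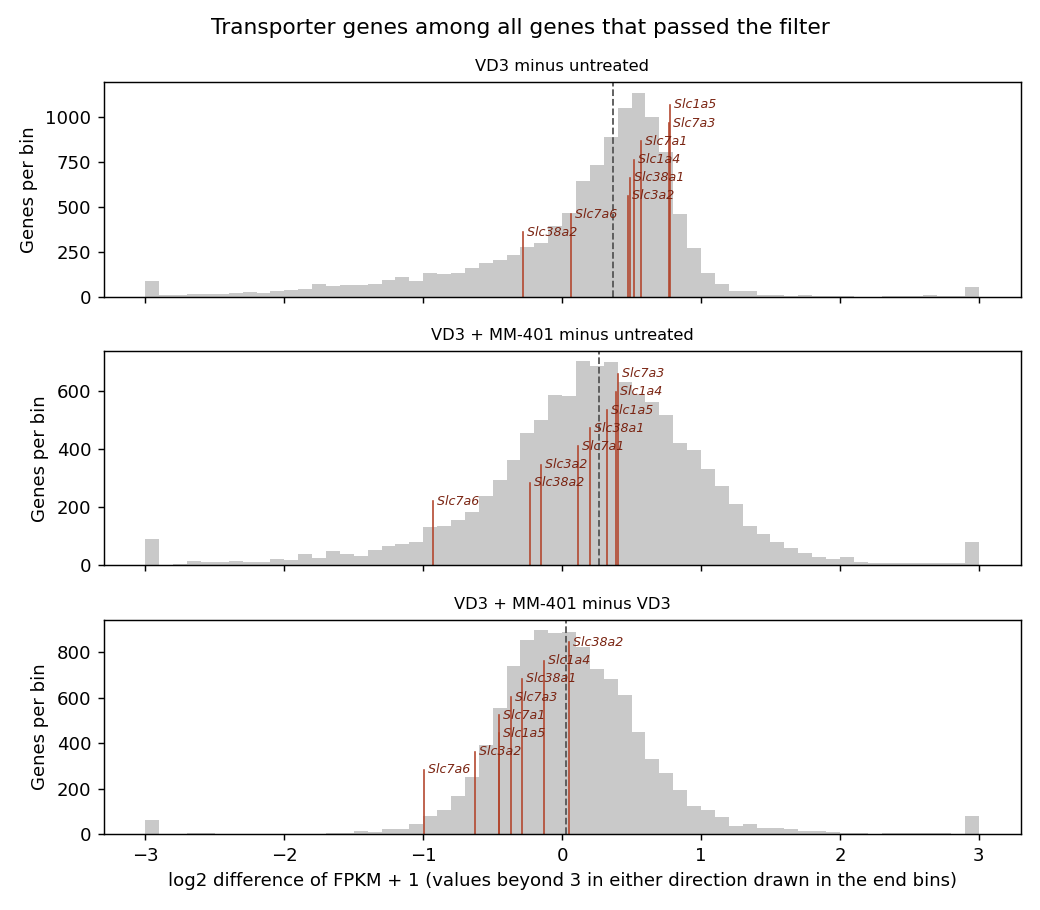
Number of genes per bin of the log2 difference of FPKM + 1 for the genes that passed the filter, in the 3 comparisons, with the median gene as a dashed line and the 8 transporters that passed as labelled red lines whose heights only separate the labels. Slc7a6 is the lowest transporter with VD3 plus MM-401, towards the lower tail of all genes, at -0.93 and -0.997 with VD3 plus MM-401 against untreated and against VD3.

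Slc3a2, on the minus strand of chromosome 19 from 8706882 to 8723369 (GENCODE vM21, GRCm38, here and below), encodes the heavy chain. It was at 666 FPKM with VD3 plus MM-401 (142 to 1190), 1030 with VD3 (462 to 1599) and 741 in untreated cells (320 to 1161). The VD3 pool was the highest and the intervals overlapped. The FPKM stood above those of 98.3%, 99.4% and 99.3% of the 11387 protein-coding genes with at least 1 FPKM in some pool, in that order. The log2 difference of FPKM + 1 was 0.48 with VD3 against untreated, at percentile 60.2 of the tested genes. It was -0.15 with VD3 plus MM-401 against untreated and -0.63 with VD3 plus MM-401 against VD3, at percentiles 26.2 and 6.90. The estimated count gave another order, with 42444 ± 7253 fragments with VD3 plus MM-401, 44985 ± 7931 with VD3 and 33809 ± 5925 in untreated cells, where ± is the standard deviation that the authors' variance gives. By count the VD3 plus MM-401 pool was thus near the VD3 pool (log2 ratio -0.08) and above the untreated pool (0.33). The difference from untreated depended on the scaling and was 0.089 by CPM. After the adjustment for GC content and length described below, which also takes away the shift of the average gene, the FPKM value was -0.60.

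The difference between both readouts can be read as the count behind 1 FPKM, which grows with the length of the transcripts that the authors' estimate assigned the fragments to. For Slc3a2 this was 63.8 with VD3 plus MM-401, 43.7 with VD3 and 45.6 in untreated cells, that is 1.40 and 0.957 times the untreated value in the treated pools. GENCODE lists 9 transcripts of Slc3a2, 8 of them protein-coding with lengths between 239 and 2813 bases. Over the 9781 genes with more than 500 counts in every pool, the same ratio to untreated had a median of 1 in both treated pools, with 5th and 95th percentiles of 0.682 and 1.35 with VD3 plus MM-401 and of 0.800 and 1.20 with VD3. The Slc3a2 value with VD3 plus MM-401 lay beyond the 95th percentile.

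**Figure D3:**
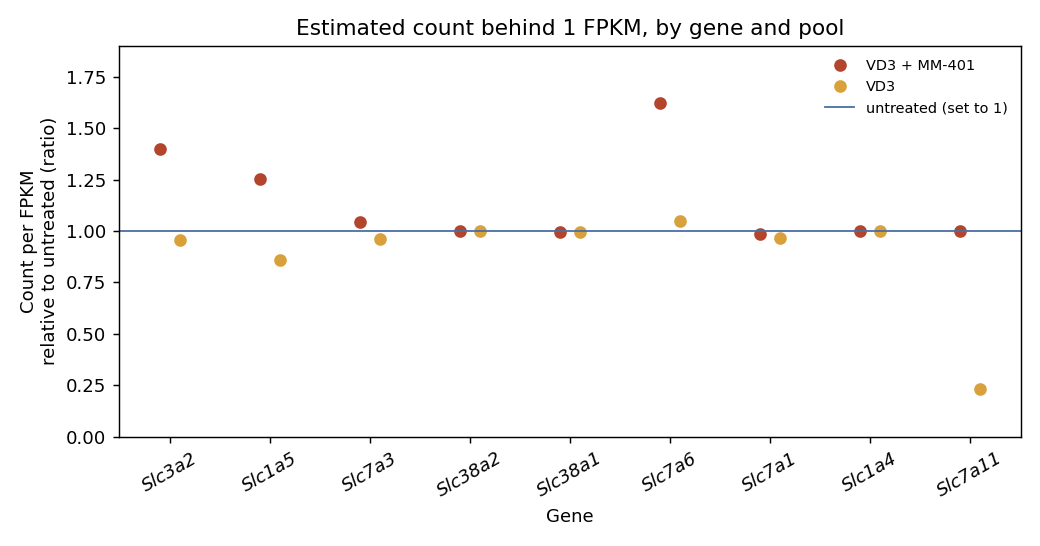
Estimated count per FPKM of each transporter in the VD3 plus MM-401 pool and in the VD3 pool, as a ratio to the untreated pool (line at 1). Slc38a1, Slc38a2 and Slc1a4 lie within 0.01 of the line, Slc7a6, Slc3a2 and Slc1a5 are above it with VD3 plus MM-401 (1.62, 1.40 and 1.25), and Slc7a11 is at 0.232 with VD3.

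Slc7a6, on the plus strand of chromosome 8 from 106168857 to 106198706, encodes y+LAT2, a light chain that exchanges cationic against neutral amino acids. It was at 21.5 FPKM with VD3 plus MM-401 (0 to 44.2), 44.0 with VD3 (2.06 to 86.0) and 42.0 in untreated cells (8.61 to 75.4). The VD3 plus MM-401 pool was the low one, at 0.490 times the FPKM of the VD3 pool, and the intervals overlapped. Its log2 difference of FPKM + 1 against VD3, -0.997, was the lowest among the transporters that passed the filter, at percentile 2.03 of the tested genes and just short of the threshold. By count the 2 pools differed less, with 4004 ± 1456 fragments with VD3 plus MM-401 and 5295 ± 1265 with VD3, a log2 ratio of -0.40, and untreated cells had 4818 ± 1039. The standard deviation was 36.4% of the count with VD3 plus MM-401, more than for any other of the 9 genes in that pool. The tables place Slc7a6 in 1 genomic span with Slc7a6os, a neighbouring gene on the other strand, which was at 71.2 FPKM with VD3 plus MM-401, 65.4 with VD3 and 41.8 in untreated cells. GENCODE lists 0 genes that overlap the annotated span of Slc7a6, so the 2 genes share the span of the tables and not annotated sequence. Whether strand was used in counting is not stated, and a mixing of their fragments was not tested. Their summed counts were 10398 with VD3 plus MM-401, 10914 with VD3 and 8747 in untreated cells.

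Slc7a11, on the minus strand of chromosome 3 from 49892526 to 50443614, encodes xCT, the light chain that imports cystine in exchange for glutamate and so feeds glutathione synthesis. It was at 0.368 FPKM with VD3 plus MM-401 (0.107 to 0.629), 0.965 with VD3 (0 to 2.71) and 0.524 in untreated cells (0.247 to 0.801). By FPKM the VD3 pool was the highest, and the intervals overlapped. The estimated counts ran the other way, with 234 ± 79.2 fragments with VD3 plus MM-401, 142 ± 49.8 with VD3 and 333 ± 81.7 in untreated cells, so that the VD3 pool was the lowest, with a log2 count ratio of -1.22 to untreated. The count behind 1 FPKM was 635 with VD3 plus MM-401, 147 with VD3 and 635 in untreated cells. The protein-coding transcripts in GENCODE are 9223 and 2419 bases long. Neither direction is therefore established for VD3. The longest transcript also holds 373 bases (from base 3399 to base 3770) that match alpha-tubulin genes and their copies, 9 genes in all, at an identity of at least 95%. Of these, 8 match on the opposite strand. Among them are Tuba1a (183 FPKM with VD3 plus MM-401, 162 with VD3 and 123 in untreated cells) and Tuba1b (112, 74.2 and 45.9 FPKM in the same order). Whether fragments from tubulin transcripts entered the value of Slc7a11 was not tested. None of the other 8 transporters had such a match of at least 200 bases. The span of Slc7a11 further holds Gm37692, a processed pseudogene on the same strand, with 69.2, 164 and 129 counts in the same order of pools. Per length, Slc3a2 was 1810 times as high as Slc7a11 with VD3 plus MM-401, 1068 times with VD3 and 1413 times in untreated cells, so that VD3 had the lowest ratio. By count, which is not per length, the ratios were 182, 316 and 102 in the same order, with VD3 the highest.

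Slc7a3 and Slc7a1 encode the cationic amino acid transporters CAT3 and CAT1, which import arginine and lysine. Slc7a3, on the minus strand of the X chromosome from 101079210 to 101086020, was at 293 FPKM with VD3 plus MM-401 (92.6 to 494), 379 with VD3 (128 to 630) and 222 in untreated cells (82.6 to 361). The untreated pool was the lowest, and the intervals overlapped. The estimated counts kept this order, at 25391 ± 4278 with VD3 plus MM-401, 30222 ± 5079 with VD3 and 18443 ± 3095 in untreated cells. Its VD3 difference of 0.77 on the log2 scale was at percentile 87.8 of the tested genes. Slc7a1, on the minus strand of chromosome 5 from 148327410 to 148399904, was at 37.6 FPKM with VD3 plus MM-401 (23.9 to 51.3), 51.8 with VD3 (34.0 to 69.6) and 34.6 in untreated cells (23.0 to 46.3). The VD3 pool was the high one, and the other pools differed little (log2 difference 0.12 with VD3 plus MM-401 against untreated). Against VD3, VD3 plus MM-401 was at -0.45 by FPKM and -0.43 by count. Per length, Slc7a3 was 7.80 times as high as Slc7a1 with VD3 plus MM-401, 7.32 times with VD3 and 6.41 times in untreated cells, and the intervals of both genes were apart in every pool. By count, which is not per length, the ratios were 1.42, 1.25 and 1.10 in the same order.

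Slc1a5 and Slc1a4 encode ASCT2 and ASCT1, sodium-dependent exchangers of neutral amino acids, of which ASCT2 is known as a glutamine carrier. Slc1a5, on the plus strand of chromosome 7 from 16781340 to 16798274, was at 342 FPKM with VD3 plus MM-401 (169 to 515), 469 with VD3 (259 to 680) and 273 in untreated cells (134 to 413). It had the largest VD3 difference of the transporters that passed, 0.78 on the log2 scale, at percentile 88.4. By count both treated pools stood alike, with 25954 ± 4370 fragments with VD3 plus MM-401 and 24415 ± 4074 with VD3, against 16590 ± 2791 in untreated cells. The lower level with VD3 plus MM-401 against VD3 that the FPKM show (-0.46) was thus absent from the counts, whose log2 ratio was 0.09. Slc1a4, on the minus strand of chromosome 11 from 20302180 to 20332713, was at 20.8 FPKM with VD3 plus MM-401 (14.0 to 27.6), 22.9 with VD3 (15.3 to 30.4) and 15.7 in untreated cells (10.5 to 20.9). Both treated pools were above the untreated one with overlapping intervals, by 0.39 with VD3 plus MM-401 and 0.52 with VD3 on the log2 scale of FPKM + 1, and by 0.41 and 0.54 on that of the counts.

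Slc38a2 and Slc38a1 encode SNAT2 and SNAT1, sodium-coupled carriers of small neutral amino acids such as alanine and glutamine. Slc38a2, on the minus strand of chromosome 15 from 96687392 to 96699730, was at 98.5 FPKM with VD3 plus MM-401 (64.8 to 132), 95.2 with VD3 (63.1 to 127) and 116 in untreated cells (76.3 to 155). It was the one transporter of the 8 with a lower level in the VD3 pool than in the untreated pool, with a log2 difference of -0.28 (percentile 19.8), and the intervals overlapped. The counts gave the same direction, with 30602 ± 5235 fragments with VD3 plus MM-401, 29573 ± 4990 with VD3 and 35963 ± 6124 in untreated cells. Slc38a1, its neighbour on the minus strand of chromosome 15 from 96571418 to 96642913, was at 56.8 FPKM with VD3 plus MM-401 (37.1 to 76.6), 69.6 with VD3 (45.7 to 93.5) and 49.3 in untreated cells (32.7 to 65.9). The untreated pool was the lowest for Slc38a1 and the highest for Slc38a2. The ratio of Slc38a2 to Slc38a1 was 1.73 with VD3 plus MM-401, 1.37 with VD3 and 2.35 in untreated cells, and the intervals of both genes were apart in the untreated pool alone.

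**Figure D4:**
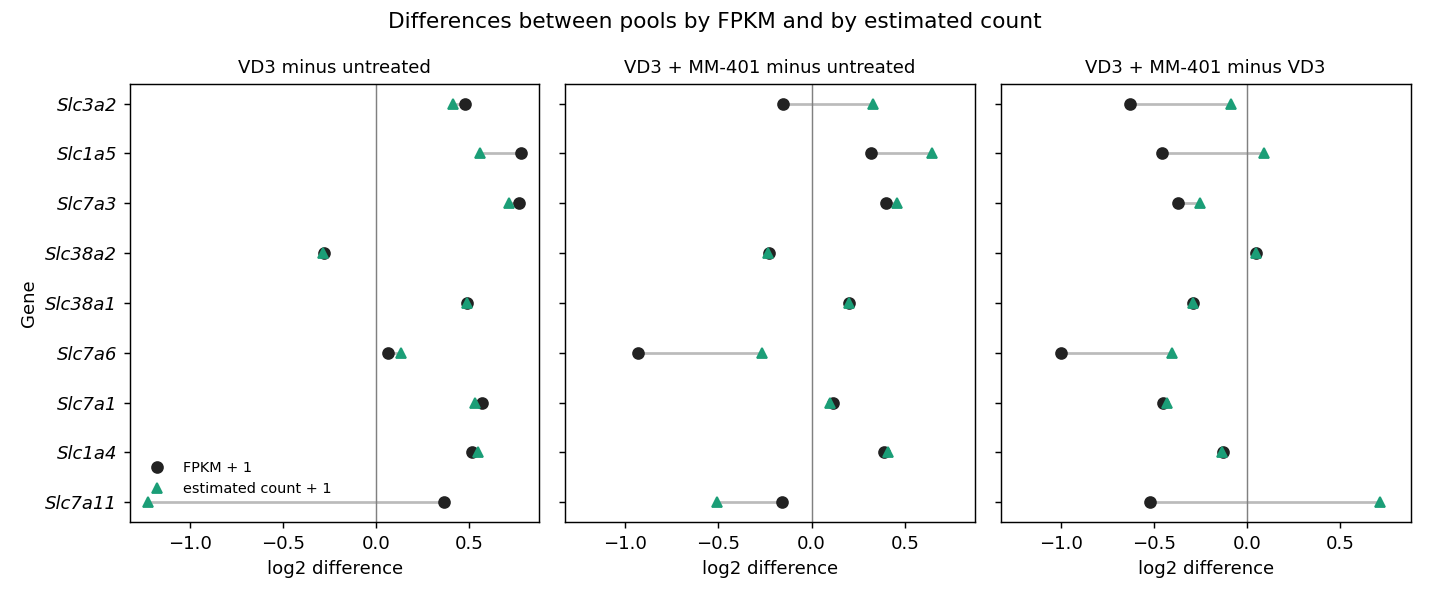
log2 difference of each transporter by FPKM + 1 (circles) and by estimated count + 1 (triangles), for VD3 minus untreated, VD3 plus MM-401 minus untreated and VD3 plus MM-401 minus VD3. Circles and triangles nearly coincide for Slc38a1, Slc38a2 and Slc1a4, and lie on opposite sides of 0 for Slc7a11 in the first panel (0.37 and -1.22), for Slc3a2 in the second (-0.15 and 0.33), and for Slc1a5 and Slc7a11 in the third.

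Differences from untreated went with transcript composition in all genes. Over 8797 protein-coding genes, all read from the same pools and no replicates of each other, the Spearman correlation of the VD3 difference was 0.567 with GC content and -0.414 with the length of the longest transcript. The transporters span this range, with a GC content of 56.5% for Slc1a5, 53.4% for Slc3a2, 43.9% for Slc38a2 and 40.7% for Slc7a11, beside a median of 50.2% for the genes in the fit. The value fitted from both properties was then subtracted. The fit has an intercept, so this also takes away the shift of the average gene. The adjusted difference is thus a distance from the value fitted for a gene's composition, and its sign is no direction against untreated. For VD3 it was 0.52 for Slc38a1, 0.42 for Slc7a3, 0.37 for Slc7a1, 0.19 for Slc1a5, 0.10 for Slc38a2, 0.07 for Slc1a4, -0.07 for Slc3a2 and -0.08 for Slc7a6. Slc7a11 was not in the fit. Slc38a2 therefore stood near the value fitted for its composition, which does not say whether its level with VD3 was below untreated. The adjusted difference of Slc7a6 remained the lowest with VD3 plus MM-401, at -1.06 against untreated and -0.97 against VD3. The adjustment acts on FPKM, and by count the log2 ratios of Slc7a6 were -0.27 and -0.40. Its count behind 1 FPKM with VD3 plus MM-401, 1.62 times the untreated value, lay beyond the 95th percentile of 1.35.

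The promoters are shown because Slc7a11 and Slc1a4, of the 6 transporters whose promoter could be searched, held the letters of the C/EBP-ATF response element, the site through which ATF4 is known to act on amino acid genes. Each line gives 120 bases before and 30 after the RefSeq start (GRCm38.p6, minus strand), in capitals where TGATGNAA or its reverse complement TTNCATCA matches; the 2 forms do not overlap in these windows. The positions are chr3:50443584-50443733 for Slc7a11, chr11:20332684-20332833 for Slc1a4, chr15:96699699-96699848 for Slc38a2 and chr19:8713868-8714017 for Slc3a2. The Slc3a2 start used, at 8713897, lies inside the GENCODE span of this minus-strand gene, which reaches 8723369. The sequence before that outer end of Slc3a2 was not searched.
Slc7a11: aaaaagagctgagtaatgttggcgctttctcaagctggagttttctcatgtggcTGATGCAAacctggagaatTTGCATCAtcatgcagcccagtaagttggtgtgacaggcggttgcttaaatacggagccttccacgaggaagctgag
Slc1a4: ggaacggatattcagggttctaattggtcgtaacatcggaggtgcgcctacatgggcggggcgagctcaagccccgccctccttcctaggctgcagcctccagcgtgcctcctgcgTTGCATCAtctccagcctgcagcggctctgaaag
Slc38a2: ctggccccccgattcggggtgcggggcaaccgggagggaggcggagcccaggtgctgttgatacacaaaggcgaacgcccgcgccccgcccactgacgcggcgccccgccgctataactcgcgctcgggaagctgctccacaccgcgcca
Slc3a2: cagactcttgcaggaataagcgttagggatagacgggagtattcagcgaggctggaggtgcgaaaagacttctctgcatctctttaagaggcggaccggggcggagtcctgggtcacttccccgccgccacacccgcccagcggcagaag

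Windows of 300 bases were at hand for 6 of the 9 transporters (8 windows), also Slc7a1 and Slc7a6, each with 2. In these the element matched at 2 places in Slc7a11, 66 and 47 bases before the start, and at 1 place in Slc1a4, 4 bases before the start. Of all 32851 mouse windows 3.97% held a match and 0.0700% held 2 or more. The Slc7a11 window had 44.7% GC and 4 CpG, and those of Slc1a4, Slc38a2 and Slc3a2 had 65.0%, 73.0% and 56.0% GC with 21, 41 and 15 CpG, beside medians of 52.7% and 7 over all windows. The E-box CACGTG, a MYC site, matched in none of the 8 windows, beside 7.15% of all windows. The antioxidant response letters TGACNNNGC matched in windows of Slc7a1, Slc7a6 and Slc38a2, beside 12.4% of all windows. A match describes letters and not binding, and no match says nothing of a site elsewhere.

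Genes of the GCN2-ATF4 amino acid response, the pathway of these elements, mostly stood above the median gene when VD3 plus MM-401 was set against untreated. Of the 22 listed genes that passed the filter with VD3 plus MM-401 against untreated, 18 were above the median gene, with a median difference of 0.58 beside 0.27 for all tested genes, and 1 was called higher, beside 4.26% of all genes, so that the number of calls lies near the background. The same comparison had 3 of 8 transporters above the median gene by FPKM, while by count their median log2 ratio was 0.26 beside 0.27 for all tested genes. Over 8817 protein-coding genes, the Spearman correlation of this difference was 0.408 with GC content and -0.573 with transcript length. The list was not adjusted for either property. The called gene was Trib3, a pseudokinase and ATF4 target, at 100.1 FPKM with VD3 plus MM-401 (65.5 to 135), 89.9 with VD3 and 46.4 in untreated cells (31.2 to 61.7). Atf4 itself was at 1087 FPKM with VD3 plus MM-401, 984 with VD3 and 638 in untreated cells, and Psat1, a serine synthesis enzyme, at 553, 580 and 422, with overlapping intervals. With VD3 against untreated 0 of 21 were called, beside 5.14% of all genes, and the median was 0.53 beside 0.36. The extremes there were Atf3, a stress-response transcription factor, with a difference of 1.24 and overlapping intervals, and Eif2s1, the initiation factor that GCN2 phosphorylates, with -0.51. Against VD3, VD3 plus MM-401 had 0 of 22 called, beside 1.37%, and a median of 0.27 beside 0.02.

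Among the other amino acid transporters of the plasma membrane and lysosome, 44 genes had a row and 21 reached 1 FPKM in some pool, while 5 were listed at 0 in every pool. In none of the comparisons was one of the 11 or 12 that passed the filter called, and these counts of 0 lie near the 5.14%, 6.94% and 1.37% of all genes called. The highest in untreated cells were Slc38a4, another SNAT gene, at 121 FPKM with VD3 plus MM-401, 137 with VD3 and 173 in untreated cells, and Slc7a7, which encodes y+LAT1, the relative of Slc7a6, at 136, 176 and 115 FPKM. With VD3 against untreated, the log2 difference of FPKM + 1 was -0.34 for Slc38a4 and 0.61 for Slc7a7. Slc43a2, a uniporter of large neutral amino acids, was at 10.3 FPKM with VD3 plus MM-401 (1.41 to 19.2), 25.6 with VD3 (5.04 to 46.2) and 12.95 in untreated cells (2.52 to 23.4). Its difference of -1.23 with VD3 plus MM-401 against VD3 had overlapping intervals and was -0.37 by count. The median difference of this list was 0.23 with VD3 against untreated, -0.09 with VD3 plus MM-401 against untreated and -0.27 with VD3 plus MM-401 against VD3, beside 0.36, 0.27 and 0.02 for all genes. In the last comparison 10 of the 12 tested genes of this list were below 0, so the lower side was not particular to the transporters described above.

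**Figure D5:**
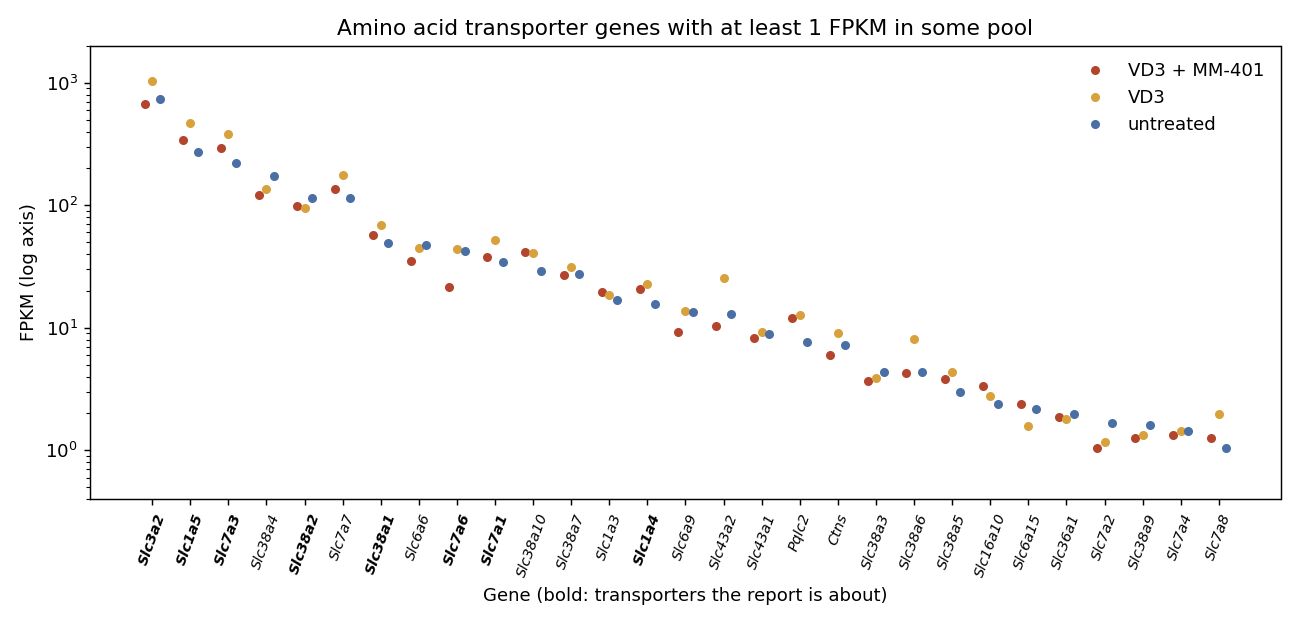
FPKM (log axis) of the 29 amino acid transporter genes with at least 1 FPKM in some pool, in the VD3 plus MM-401, VD3 and untreated pools, without error bars. The 8 genes in bold are the transporters described above, and Slc3a2, Slc1a5 and Slc7a3 lead the order in every pool.

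Of the mitochondrial amino acid carriers 6 of 8 passed the filter and 0 were called in any comparison, beside 5.14%, 6.94% and 1.37% of all genes. The medians were 0.65 for VD3 and 0.49 for VD3 plus MM-401 against untreated, beside 0.36 and 0.27 for all genes. Slc25a38, a glycine carrier, was at 31.1 FPKM with VD3 plus MM-401 (16.1 to 46.1), 30.1 with VD3 (18.4 to 41.9) and 14.8 in untreated cells (7.31 to 22.2). Slc25a22, a glutamate carrier, was at 66.0, 80.5 and 63.2 FPKM in the same order, and Slc25a13, an aspartate-glutamate carrier, at 63.0, 68.7 and 46.5.

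Of the genes of mTORC1 amino acid sensing, 30 passed the filter in each comparison. With VD3 against untreated 1 was called lower and 0 higher, beside 4.22% and 0.926% of all genes, and the median was 0.39 beside 0.36. The called gene was Deptor, an inhibitory mTOR partner, at 9.08 FPKM with VD3 plus MM-401 (5.98 to 12.2), 4.97 with VD3 (3.27 to 6.67) and 11.9 in untreated cells (7.96 to 15.9). With VD3 plus MM-401 against untreated 1 gene was called higher, beside 4.26% of all genes. Both counts lie near the background. The gene was Lamtor4, a subunit of the lysosomal Ragulator, at 59.6 FPKM with VD3 plus MM-401 (37.8 to 81.5), 37.1 with VD3 and 26.1 in untreated cells (16.8 to 35.5). Lamtor2, another Ragulator subunit, was at 256, 199 and 154 FPKM with overlapping intervals. Sesn2, a leucine sensor, had the largest VD3 difference of the list, 0.86, at 103 FPKM with VD3 plus MM-401, 119 with VD3 and 64.9 in untreated cells. Lars, the leucyl-tRNA synthetase, was listed at 7359, 3494 and 2590 FPKM, but its counts were 40371, 41704 and 33684, close to those of Slc3a2, so its FPKM and its count give different sizes of difference.

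Of 12 genes of glutathione metabolism, redox enzymes and their NRF2 regulators, 0 were called in any comparison, beside the 5.14%, 6.94% and 1.37% of all genes. Their medians were 0.28 for VD3 and 0.09 for VD3 plus MM-401 against untreated, beside 0.36 and 0.27 for all genes. With VD3 plus MM-401 against VD3 the median was -0.23 beside 0.02, and 10 of 12 were below 0, as were 47.9% of all genes. Gclc and Gclm encode the subunits of the enzyme that starts glutathione synthesis. Gclc was at 33.3 FPKM with VD3 plus MM-401 (22.2 to 44.3), 43.0 with VD3 and 49.2 in untreated cells (33.1 to 65.3), and Gclm at 167, 255 and 207 FPKM. Txnrd1, a thioredoxin reductase, was at 280, 382 and 342 FPKM, and Keap1, the inhibitor of NRF2, at 13.3, 15.2 and 7.84 FPKM, with overlapping intervals.

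The genes whose differences from untreated were most like those of Slc1a5, by Euclidean distance in the 2 log2 differences of FPKM + 1 over the 3 pools, were Asb6, Zfp207 and Rin1, at distances of 0.0019, 0.0053 and 0.011. Those most like Slc38a2 were Dsc2, Mapre3 and Fan1, at 0.0086, 0.013 and 0.015. With only 3 pools such likeness is common, since 136 of 11677 genes lay within 0.1 of Slc1a5 and 130 within 0.1 of Slc38a2.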

How the data were processed

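Gene expression was measured by RNA sequencing in mouse embryonic stem cells, with 2 TruSeq libraries in each of 3 groups. TopHat2 2.1.1, SAMtools 1.5, Cufflinks 2.2.1 and mm10 are named, per the submitters' processing notes, and no settings are known here. The authors deposited FPKM with a lower and an upper confidence bound per locus, and the estimated count per locus, which need not be whole, with its variance, in 1 pooled column per group.

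From these, 14 of 62490 loci without a valid status were left out and loci sharing a name were summed. Differences are log2 ratios of FPKM + 1. Counts were compared as log2(count + 1), or as CPM (scaled to the pool's total). A count test across libraries could not be made on pooled columns. Transcript GC content and length came from GENCODE vM21 and entered a quadratic least-squares fit with an intercept over protein-coding genes. Promoters came from RefSeq (GRCm38.p6). Near-identical copies were searched with blastn (identity at least 95%, at least 200 bases). The calculations used Python 3.11.15 with pandas 2.3.3 and were tested on simulated data.

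The members and gene lists were chosen with earlier results of these data known. Named from each list were called genes, the 2 highest in untreated cells, and the largest and smallest VD3 difference. Like patterns were sought among genes with a single locus and at least 100 counts in every pool. Comparison by counts as deposited was added after seeing the data.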

Additional observations from a re-analysis of the deposited data

How the results depend on the processing

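No paired analysis was possible because the columns are pools and carry no replicate, and for the same reason no library could be left out. In every setting tried for them (2-fold alone, centring on the median gene, pseudocount of 0.1, CPM with intervals of 2 standard deviations), 0 of the 9 transporters were called in any comparison; the filter on the level was not applied here, so Slc7a11, which did not pass it, is counted. The members' median VD3 difference against untreated, 0.50, was 0.14 after centring and also 0.14 after adjustment for GC content and length. The adjustment also takes away the shift of the average gene, so it is no check separate from centring. The share of GC content and length in the fall was not tested. Directions of single transporters changed in 7 of 27 values with CPM, in 4 of 27 with counts as deposited, in 3 of 27 after centring and in 7 of 24 after the adjustment, and in 0 of 27 with the pseudocount of 0.1 or the largest locus only. After centring the direction is that from the median gene, and after the adjustment that from the fitted value, not from the other pool. With 2-fold alone the counts of called genes were 1335 (386 higher, 949 lower) for VD3 against untreated, 2150 (1466 and 684) for VD3 plus MM-401 against untreated, and 716 (500 and 216) for VD3 plus MM-401 against VD3. With CPM they were 1040 (21 higher, 1019 lower) in the first comparison, 836 (203 and 633) in the second, and 75 (65 and 10) in the third. Centring gave 54 higher genes in the first comparison and 299 in the second, and a filter of 1 FPKM or none gave 97 lower genes in the third. The cause was not tested beyond the fewer criteria that 2-fold alone sets. The precision of each pool, a standard deviation of 16.4% or more of the count for every transporter, limits what could be seen.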
